A study of Mus musculus with 127 samples.

Results

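RNA of the synaptic fraction was compared with RNA of the nuclear fraction within the same cortex, in adult mice that carry a conditional mutation of Chd8. The comparison takes in every mutant animal whose 2 libraries carry the same genotype label, which gave 16 of the 127 libraries of the series, from 8 animals. The animals labelled HOM (homozygous floxed, Camk2a-CRE Chd8flox/flox) were 1 female and 2 males, and those labelled HET (heterozygous floxed, Camk2a-CRE Chd8+/flox) were 3 females and 2 males. All were about 60 days old, and all carry Camk2a-CRE by their titles. One further animal was left out because its nuclear library is labelled HET and its synaptic library HOM, and 1 because it has a synaptic library alone. The 8 wild-type libraries of the same table were not used, so nothing here compares mutants with controls.

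Chd8 encodes an ATP-dependent chromatin remodeller, and loss of 1 copy is a known cause of autism in people. Camk2a-CRE drives recombination in excitatory neurons of the forebrain, so interneurons, glia and vessel cells keep a functional allele and their RNA is in both fractions. A synaptosome preparation collects pinched-off nerve endings with attached postsynaptic membrane, together with other membrane and cytoplasmic material. Neurons send selected mRNAs into dendrites and axons, where they can be translated close to synapses. Other RNAs, among them many long non-coding RNAs and incompletely spliced transcripts, stay at the chromatin or in nuclear bodies.

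Poly(A) RNA-seq reads were counted per gene, and total gene counts ran from 34225428 to 56195933 in the synaptic libraries and from 27886609 to 53765451 in the nuclear ones. Levels below are CPM, counts scaled to the size of the library, after TMM normalisation over all 16 libraries, and changes are log2 fold changes of synaptic over nuclear RNA with animal as a block. A gene is called higher or lower where its adjusted p in the quasi-likelihood test of edgeR (Benjamini-Hochberg over all genes tested) is under 0.05. The fractions separated completely on the first principal component, which carried 77.2% of the variance. RNAs of long non-coding classes made up 0.758 to 0.938% of counts in synaptic and 2.52 to 3.91% in nuclear libraries. Mitochondrially encoded genes took 5.63 to 11.6% of synaptic and 3.18 to 4.95% of nuclear counts. TMM factors were 0.787 to 0.883 in synaptic and 1.15 to 1.27 in nuclear libraries, so the scaling matters for small changes. With total counts alone the median of all genes lies at −0.55 in place of −0.04, a shift of −0.51, and list medians that turn under that scaling are given beside their list.

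The Cre transgene and Chd8 were checked first, because they bear on the labels. In HET male 1 the count of Cre was 0 in both fractions, although its title gives Camk2a-CRE. These were the only libraries without a Cre count among the 27 of the table, and the other 14 libraries used here held 52 to 332 counts. The animal labelled HET male 1 is therefore kept by its label, and results are also given without it. In the 7 animals with Cre, its level was lower in synaptic than in nuclear RNA in 7 of 7, at 1.77 to 4.05 CPM in synaptic and 3.78 to 6.05 CPM in nuclear libraries. The mean log2 difference was −0.77 ± 0.32 (SD, n = 7; two-sided exact sign-flip permutation p = 0.0156, the smallest that 7 animals allow; 0.0586 after adjustment over 5 single-gene tests).

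Chd8 (chromosome 14, 52198151 to 52257780 of GRCm38, minus strand) was detected in every library of both fractions. In HOM female 1 it stood at 33.8 CPM in synaptic and 43.6 CPM in nuclear RNA, in HOM male 1 at 69.5 and 65.7 CPM in that order, and in HOM male 2 at 58.2 CPM in synaptic and 80.5 CPM in nuclear RNA. In the HET animals the synaptic levels were 57.4, 48.3 and 59.7 CPM in females 1 to 3 and 77.5 and 67.1 CPM in males 1 and 2. The nuclear levels of the same HET animals were 79.8, 82.7, 80.3, 77.7 and 78.2 CPM. The HET nuclear values thus lay within 77.7 to 82.7 CPM, while the HOM nuclear values spread from below that range to inside it. Chd8 was lower in synaptic RNA in 7 of 8 animals, with a log2 fold change of −0.33 (SE 0.09, edgeR adjusted p = 0.00308). The exact sign-flip permutation test over the 8 animals gave p = 0.0234, where 0.00781 is the smallest possible, and 0.0586 after adjustment over the 5 single-gene tests. Without HET male 1, whose levels were nearly the same in both fractions, the mean log2 difference was −0.38 ± 0.26 (SD, n = 7, exact p = 0.0312).

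The levels of Chd8 in HOM and HET overlapped in both fractions. The nuclear mean was 63.3 ± 18.6 CPM over the 3 HOM animals, against 79.7 ± 1.96 CPM over the 5 HET animals (SD), a log2 difference of −0.38 (exact permutation p = 0.0893). The synaptic mean was 53.8 ± 18.2 CPM over the 3 HOM animals, against 62 ± 11.0 CPM over the 5 HET animals, a log2 difference of −0.25 (exact permutation p = 0.464). With 56 arrangements the smallest possible p is 0.0179. HOM female 1 decides much of this: without it the nuclear difference is −0.13 and the synaptic one 0.06. Without HOM male 2 the nuclear difference is −0.57 (exact permutation p = 0.0476, the smallest that 2 against 5 animals allow). Without HET male 1 the nuclear difference is −0.39 (exact permutation p = 0.114) and the synaptic one −0.16 (exact permutation p = 0.657). The counts cover the whole gene, so reads from a recombined allele and from cells without Cre are included, and 1 antisense gene overlaps Chd8.

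**Figure D1:**
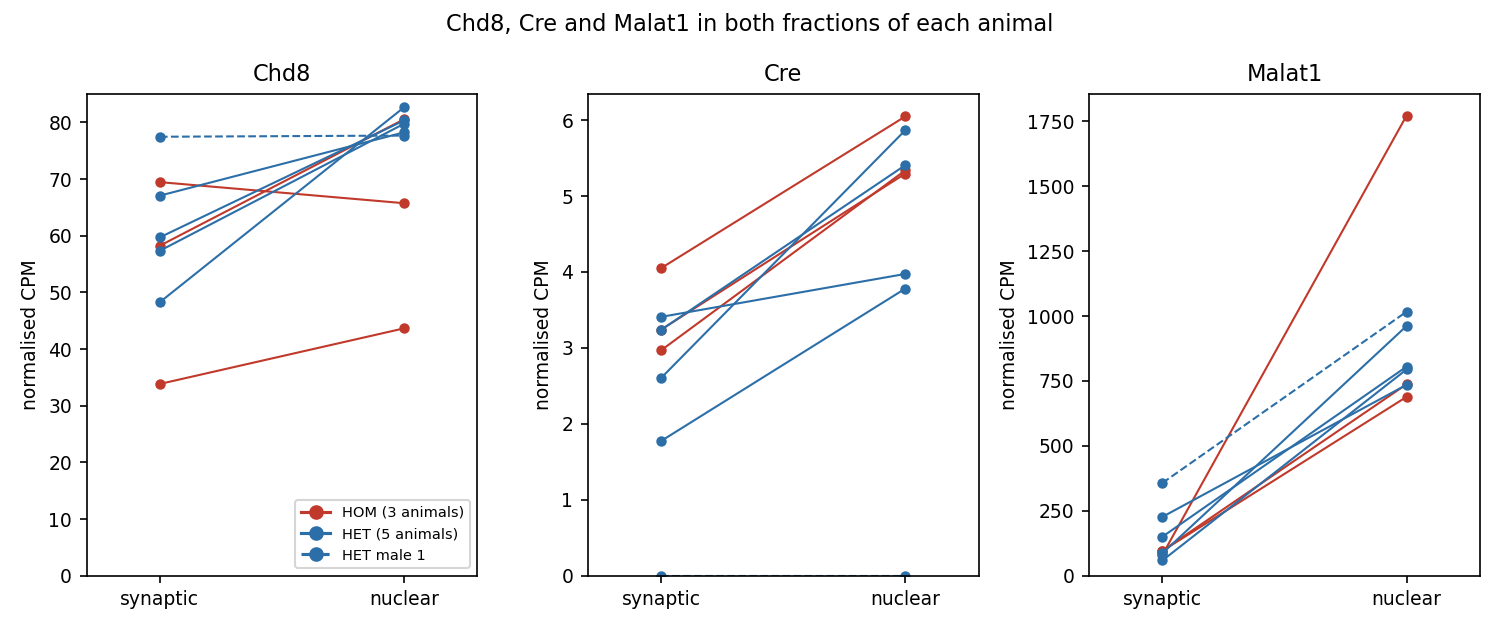
Normalised CPM (y axes, from 0) of Chd8, Cre and Malat1 in the synaptic and nuclear libraries of each animal, with a line joining the 2 libraries of an animal (red, HOM, 3 animals; blue, HET, 5 animals; dashed, HET male 1). Cre is at 0 in both libraries of HET male 1, and Malat1 is lower in the synaptic library of 8 of 8 animals.

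Most of the measured transcriptome differed between the fractions. Of 18167 genes tested, 6224 (34.3%) were higher and 6741 (37.1%) lower in synaptic RNA. A change of at least 2-fold was much more frequent in the lower direction, with 1565 genes (8.61%) higher and 3676 genes (20.2%) lower. All 8 animals shared the direction in 4807 of the higher and 5325 of the lower genes. Without HET male 1, 6193 genes were higher and 6571 lower, and 96.7% of the 12965 calls held in the same direction. With total counts as the scaling the split becomes 2482 higher against 11482 lower, and 2343 of the genes called higher then have a value below 0. None of the 1565 genes that were at least 2-fold higher did so.

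**Figure D2:**
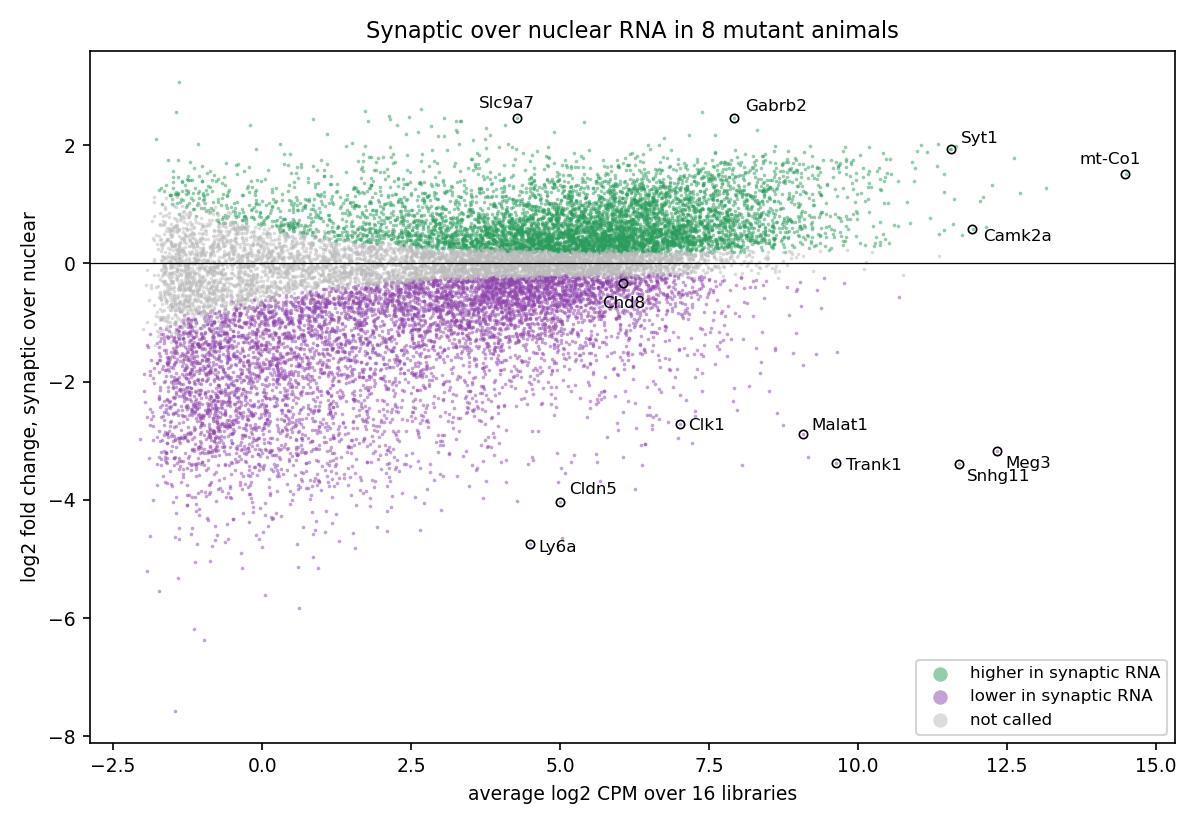
Log2 fold change of synaptic over nuclear RNA (y axis) against average log2 CPM over the 16 libraries (x axis), 1 point per gene tested (green, called higher in synaptic RNA; purple, called lower; grey, not called). Circles mark genes named in the text, with Ly6a at −4.74 and Gabrb2 at 2.47.

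RNAs known to stay in the nucleus were the first group examined. Like all lists here, this one was chosen with earlier results of these data known. The list counts are thus a description and not an independent check of the separation. Malat1, a nuclear speckle RNA (chromosome 19, 5795690 to 5802672, minus strand), had 58.4 to 357 CPM in synaptic libraries with a median of 95.6, and 689 to 1772 CPM in nuclear libraries with a median of 800. The ranges did not overlap, and the log2 fold change was −2.89 (SE 0.26, adjusted p = 1.88e-08). The highest synaptic level, 357 CPM, was that of HET male 1, and the next was 226 CPM in HET female 1. Neat1, the scaffold of paraspeckles, averaged 14.1 ± 3.26 CPM in synaptic and 152 ± 39.1 CPM in nuclear RNA (SD, n = 8 each), 10.7-fold lower in synaptic RNA.

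Of the 18 RNAs of this list 17 were tested, with 13 lower and 3 higher in synaptic RNA and a median of −2.52, against −0.04 for all genes. Over all genes 37.1% were lower and 34.3% higher, and over long non-coding classes 65.8% were lower and 5.51% higher. Meg3, the maternally expressed RNA of the imprinted Dlk1 locus (chromosome 12, 109541001 to 109571726, plus strand), held 0.0886% of synaptic and 1.11% of nuclear counts, and no other RNA outside the mitochondrial genome held more nuclear counts (not corrected for length). It averaged 1051 ± 330 CPM in synaptic and 9222 ± 1631 CPM in nuclear RNA (SD, n = 8 each; log2 fold change −3.18, SE 0.19). Its neighbours at the same locus, Rian (−1.49) and Mirg (−2.23), and the imprinted gene Rtl1 on the opposite strand (−3.69) were lower as well, and several annotated genes overlap there. Snhg11 (−3.39), Miat (−3.28), Firre (−3.05) and the X-linked Ftx (−3.81) fell in 8 of 8 animals each.

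Rmst (−2.52), Kcnq1ot1 (−1.93) and Snhg14 (−1.18) were also lower in 8 of 8 animals. The remaining members were higher or not called. Peg13, an imprinted non-coding RNA of the brain, averaged 362 ± 46.3 CPM in synaptic and 159 ± 38.3 CPM in nuclear RNA (SD, n = 8 each; log2 fold change 1.23, SE 0.11, adjusted p = 2.99e-08), with no overlap between the fractions. Dlx6os1 was slightly higher at 0.30 (adjusted p = 0.0179), a value that turns to −0.22 with total counts, and Pvt1 had −0.21 (adjusted p = 0.123), with a lower synaptic level in 7 of 8 animals. Xist, which coats the inactive X chromosome of females, had 57.7 CPM in the synaptic library of HOM female 1 and 108, 39.8 and 59.6 CPM in those of HET females 1 to 3. Their nuclear libraries held 8.54 CPM in HOM female 1 and 35.3, 57.6 and 11.1 CPM in HET females 1 to 3. Xist was thus higher in synaptic RNA in 3 females and lower in HET female 2. Over these 4 animals the mean log2 difference was 1.56 ± 1.48 (SD, n = 4, exact sign-flip p = 0.25, where 0.125 is the smallest possible) and 4 animals cannot reach 0.05 in this test. The fit over both sexes called Xist higher (1.62, adjusted p = 0.000444). Overlapping genes on both strands of Xist add to this uncertainty.

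**Figure D3:**
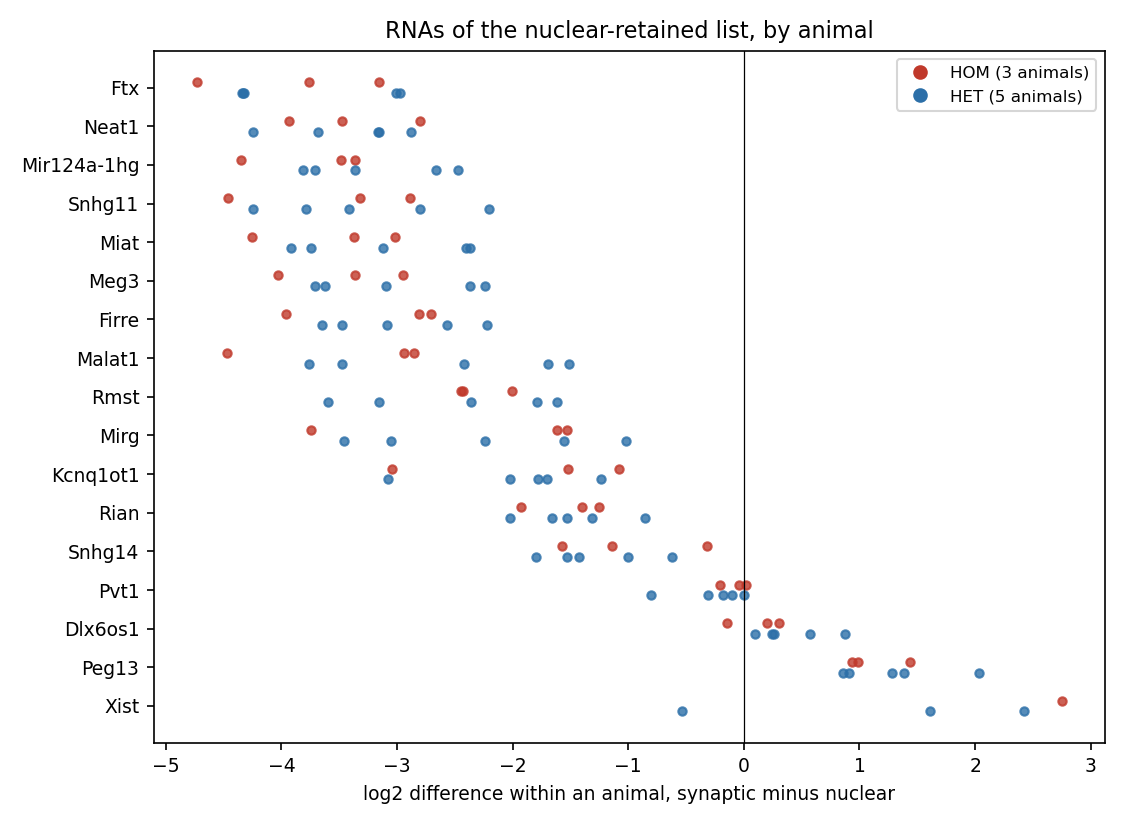
Log2 difference of synaptic minus nuclear RNA within each animal (x axis) for the 17 RNAs of the nuclear-retained list (y axis), with 1 point per animal (red, HOM, 3 animals; blue, HET, 5 animals; females alone for Xist). Ftx to Snhg14 lie below 0 in every animal, Peg13 lies above 0 in every animal, and Xist falls on both sides.

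Long non-coding RNAs as a class followed the same direction as the nuclear list. Of 2521 tested, 1658 (65.8%) were lower and 139 (5.51%) higher in synaptic RNA, and their median was −1.28. Of 14868 protein-coding genes, 4748 (31.9%) were lower and 5998 (40.3%) higher, with a median of 0.08. At least 2-fold changes were found for 42 higher (1.67%) and 1415 lower (56.1%) long non-coding RNAs, and for 1484 higher (9.98%) and 1968 lower (13.2%) protein-coding genes. Hosts of small nucleolar RNAs, whose introns are processed in the nucleus, were lower in 13 of 13 members tested (median −1.51), from −3.39 for Snhg11 to −0.84 for Snhg8.

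Non-coding genes that contain a miRNA hairpin on their own strand were looked at after the value of the miR-124 host gene Mir124a-1hg was seen (47.1 ± 14.6 CPM in synaptic and 484 ± 72.9 CPM in nuclear RNA; SD, n = 8 each). These genes are the primary transcripts from which the nuclear enzyme Drosha cuts hairpins that are exported and trimmed to mature miRNAs. The annotation holds 82 such non-coding hosts, of which 49 were tested, and 39 were lower, 0 higher and 10 not called, with a median of −2.40. The lower hosts include Ftx, Meg3, Rmst, Mirg and Rian of the nuclear-retained list, so the 2 groups are not independent. Mir124a-1hg itself is not among these 49. Among the 3292 non-coding genes tested, 60.5% were lower and 6.83% higher, and among the long non-coding classes 65.8% and 5.51% in that order. Of 497 protein-coding hosts tested, 246 (49.5%) were higher and 143 (28.8%) lower, beside 40.3% and 31.9% of all protein-coding genes. The libraries measured the long host transcripts and not the mature miRNAs. The mature sequences below, from the RefSeq table of GRCm38.p6, show which small RNAs the called non-coding hosts described next encode. Capitals mark the seed, bases 2 to 8, which pairs with target mRNAs.

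miR-132-3p: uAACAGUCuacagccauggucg
miR-212-3p: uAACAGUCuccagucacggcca
miR-29b-3p: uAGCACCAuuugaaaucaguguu
miR-29c-3p: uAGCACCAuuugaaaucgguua
let-7a-5p: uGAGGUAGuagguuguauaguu
let-7d-5p: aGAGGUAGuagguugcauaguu
let-7f-5p: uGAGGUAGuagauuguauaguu
miR-9-5p: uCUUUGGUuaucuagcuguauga
miR-138-5p: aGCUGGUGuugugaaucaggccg
miR-125b-5p: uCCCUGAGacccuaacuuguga
miR-100-5p: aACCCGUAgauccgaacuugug

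miR-132 and miR-212, which are induced by neuronal activity, share 1 seed and 1 host, 1700016P03Rik on chromosome 11, with 3.98 ± 1.76 CPM in synaptic and 22.5 ± 8.43 CPM in nuclear RNA (SD, n = 8 each; log2 fold change −2.50, SE 0.19). The miR-29 pair shares a seed and the host A330023F24Rik on chromosome 1, with 12.9 ± 5.86 CPM in synaptic and 120 ± 36.3 CPM in nuclear RNA (−3.28, SE 0.16). The 3 let-7 miRNAs share a seed and the host 6720427I07Rik on chromosome 13, which was at 1.71 ± 0.57 CPM in synaptic and 14.2 ± 4.29 CPM in nuclear RNA (−3.01, SE 0.22). All 3 hosts were lower in synaptic RNA in 8 of 8 animals.

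miR-9, a miRNA of neural progenitors and neurons, is encoded by 3 loci with identical mature sequence, and their hosts differed in size of change. Gm3764 on chromosome 3 had −2.79 (SE 0.16), C130071C03Rik on chromosome 13 had −1.27 (SE 0.08) and Mir9-3hg on chromosome 7 had −0.83 (SE 0.11). C78859 on chromosome 8, host of miR-138, which acts on dendritic spines, had −3.35 (SE 0.17). A joint host of miR-100, miR-125b and a further let-7a copy, 3110039I08Rik on chromosome 9, had −2.78 (SE 0.12). Another annotated host of the same hairpins, Gm49317, went the other way at 0.58 (SE 0.43) and was not called (edgeR adjusted p = 0.241). Gm49317 averaged 0.40 CPM in synaptic and 0.27 CPM in nuclear RNA. Gm28119, also annotated for miR-125b, had −2.24 (SE 0.44). Gm3764, C130071C03Rik, Mir9-3hg, C78859 and 3110039I08Rik were each lower in synaptic RNA in 8 of 8 animals.

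Protein-coding transcripts could also lie far to the nuclear side. Trank1 (chromosome 9, 111311739 to 111395775, plus strand), picked out after its values were seen, had 93.9 to 197 CPM in synaptic and 1004 to 1869 CPM in nuclear libraries, 10.4-fold lower in synaptic RNA (log2 fold change −3.38, SE 0.16, adjusted p = 3.53e-11). Genes of splicing factors and their regulators were lower in 49 and higher in 16 of 72 members (median −0.55). Of protein-coding genes 31.9% were lower and 40.3% higher. The kinase genes Clk1 (−2.71, SE 0.19) and Clk4 (−2.56, SE 0.16), whose products phosphorylate SR proteins, led the lower members. Clk1 had 16.5 to 61.2 CPM in synaptic and 134 to 350 CPM in nuclear libraries. The 2 largest higher values were those of Prpf8 (1.58, SE 0.09) and Snrnp200 (1.19, SE 0.08), which encode core components of the spliceosome.

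Zinc finger genes named Zfp were lower in 189 and higher in 59 of 361 tested members, of 400 in the table (median −0.30). Zfp950 averaged 17.6 ± 5.18 CPM in synaptic and 147 ± 37.0 CPM in nuclear RNA (SD, n = 8 each; −3.07, SE 0.15), while Zfp804a had 1.28 (SE 0.12). Chromatin regulators, the class to which Chd8 belongs, had 27 lower and 23 higher of 71. Of protein-coding genes 31.9% were lower and 40.3% higher, and of all genes 37.1% and 34.3% in that order. The median of the regulators was 0.00 and turns below 0 under several settings. Tet2, which oxidises methylcytosine, had −2.35 (SE 0.14) and the histone methyltransferase gene Ezh2 −1.26 (SE 0.13). Arid1b, a BAF complex subunit, had 0.79 (SE 0.07).

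Transcripts of inhibitory synapses were higher in synaptic RNA in 21 of 21 members, with a median of 1.32, against a background of 34.3% of genes called higher. Gabrb2, the beta2 subunit of the GABA-A receptor (chromosome 11, 42419757 to 42629028, plus strand), had 264 to 468 CPM in synaptic libraries with a median of 428, and 16.2 to 118 CPM in nuclear libraries with a median of 83.1. The fractions did not overlap, and the log2 fold change was 2.47 (SE 0.22, adjusted p = 1.62e-08). The lowest nuclear level was that of HET female 2. Slc32a1, the vesicular GABA transporter, averaged 144 ± 26.0 CPM in synaptic and 38.4 ± 9.62 CPM in nuclear RNA (SD, n = 8 each; 1.93, SE 0.13). Markers of GABAergic interneurons moved the same way, but that list also holds Slc32a1, so the lists are not independent. The interneuron markers summed to 2755 to 3724 CPM in synaptic and 830 to 1351 CPM in nuclear libraries. Their part in the result for inhibitory synapses was not tested.

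Presynaptic genes were higher in 35 of 40 members and lower in 1 (median 0.72), beside 40.3% higher and 31.9% lower of protein-coding genes. The calcium sensor of vesicle release Syt1 had 3659 to 5835 CPM in synaptic and 676 to 1595 CPM in nuclear libraries (log2 fold change 1.93, SE 0.14), and the vesicle protein gene Sv2b had 1.96 (SE 0.11). The lower member was Bin1 (−0.35, SE 0.08), a membrane-bending protein gene that glia also express. Postsynaptic scaffold and receptor genes were higher in 28 of 32 and lower in 1 (median 0.80). Among them were the NMDA receptor subunit gene Grin2b (1.69, SE 0.12) and Nlgn1 (1.60, SE 0.11), a neuroligin that bridges the cleft, while Homer3 was the lower one (−0.47, SE 0.14).

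Voltage-gated ion channel genes were higher in 44 of 47 members and lower in 1, with a median of 1.14. Protein-coding genes as a whole were higher in 40.3% and lower in 31.9%. Kcna1, an axonal potassium channel subunit gene, averaged 172 ± 39.1 CPM in synaptic and 42.2 ± 14.9 CPM in nuclear RNA (SD, n = 8 each; 2.12, SE 0.17). Cacna1d was the lower one (−0.34, SE 0.11). Cytoskeletal and axonal transport genes were higher in 27 of 31 and lower in 1 (median 0.75), with the dynein heavy chain gene Dync1h1 at 1.47 (SE 0.11) and the microtubule protein gene Map1b at 1.46 (SE 0.11).

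All 54 clustered protocadherin genes tested, of 57, were higher in synaptic RNA, with a median of 1.85, beside 40.3% of protein-coding genes. These genes encode adhesion proteins that give neurons an individual surface identity, and they supplied 8 of the 10 largest higher changes among genes whose average log2 CPM reached 3. Pcdhgc5, which led that ranking, averaged 281 ± 49.3 CPM in synaptic and 51.8 ± 19.6 CPM in nuclear RNA (SD, n = 8 each; 2.56, SE 0.20). The genes of the alpha and gamma clusters share constant exons and overlap on 1 strand, Pcdhgc5 with 25 other genes, so reads cannot be assigned to single members with certainty. The remaining genes of the 10 were Gabrb2 and Slc9a7, a sodium-proton exchanger of the Golgi (2.46, SE 0.17).

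RNAs known from dendrites were mostly higher in synaptic RNA, beside 40.3% higher and 31.9% lower of protein-coding genes. Of 24, 21 were higher and 0 lower with a median of 0.48, a median that turns to −0.03 with total counts, where 8 are higher and 6 lower. Bdnf, the neurotrophin gene, had 54.7 to 110 CPM in synaptic and 14.7 to 42.0 CPM in nuclear libraries and the largest change of the list (1.49, SE 0.10). Itpr1 (1.29, SE 0.09), Adcy1 (1.25, SE 0.11) and the kinesin gene Kif1a (1.09, SE 0.10) followed, and these keep their direction under total counts. Camk2a, whose mRNA is a standard dendritic transcript and whose promoter drives the Cre used here, had 3380 to 6258 CPM in synaptic and 2235 to 3749 CPM in nuclear libraries. The fractions overlapped for Camk2a, although it was higher in 8 of 8 animals (0.59, SE 0.12, adjusted p = 0.000191). Arc, an activity-induced gene with mRNA transported to active synapses, had 0.51 (SE 0.09) and turns to −0.01 with total counts. Fmr1, which encodes an RNA-binding protein of dendrites, had −0.07 (adjusted p = 0.431), Eef1a1 0.20 (adjusted p = 0.0674) and Shank2 0.21 (adjusted p = 0.0514), and Eef1a1 and Shank2 both turn to −0.31 with total counts.

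Mitochondrially encoded mRNAs were higher in 13 of 13 members, with a median of 1.25. mt-Co1, a cytochrome c oxidase subunit gene, held 2.83% of synaptic and 1.40% of nuclear counts on average, more than any other gene in either fraction (not corrected for length). Its level was 23375 to 51875 CPM in synaptic and 8687 to 14364 CPM in nuclear libraries (1.51, SE 0.14). Nuclear-encoded subunits of oxidative phosphorylation differed much less: 33 of 77 were higher and 9 lower, beside 40.3% and 31.9% of protein-coding genes, with a median of 0.15 that turns to −0.36 with total counts. Uqcrc2 had 0.85 (SE 0.08), and Ndufab1, the mitochondrial acyl carrier protein gene, had −1.12 (SE 0.07). Glycolysis genes were higher in 13 of 16 and lower in 2 (median 0.66), with hexokinase gene Hk1 at 1.05 (SE 0.10).

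The translation machinery was not uniform. Of all protein-coding genes 40.3% were higher and 31.9% lower, the background of the counts that follow. Translation factors were higher in 26 of 36 and lower in 0 with a median of 0.32 that turns to −0.20 with total counts, led by Eif3c (1.23, SE 0.09) and the scaffold factor gene Eif4g1 (0.99, SE 0.08). Cytosolic ribosomal protein genes had 1 higher and 36 lower of 82 (median −0.18), beside 34.3% higher and 37.1% lower of all genes, and with total counts 0 are higher and 81 lower. The higher one, Rpl15, had 0.20 (SE 0.08) and turns to −0.31 with total counts. The largest lower values belonged to genes with few counts and an overlapping gene on the same strand, Rps10 (0.62 ± 0.30 CPM in synaptic and 4.61 ± 1.59 CPM in nuclear RNA) and Rpl24 (0.22 ± 0.18 CPM in synaptic and 1.19 ± 0.46 CPM in nuclear RNA; SD, n = 8 each). Processed copies of ribosomal protein genes can share reads with them. Mitochondrial ribosomal protein genes had 22 higher and 16 lower of 77 (median 0.09, or −0.42 with total counts). Proteasome genes were higher in 23 of 31 and lower in 1 (median 0.29, or −0.22 with total counts), with Psmd1 at 1.04 (SE 0.08).

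Immediate early genes had 10 higher and 3 lower of 22, beside 40.3% higher and 31.9% lower of protein-coding genes, and a median of 0.26 that turns to −0.25 with total counts. Klf4 stood apart at −3.19 (SE 0.14), with 1.52 ± 0.63 CPM in synaptic and 13.6 ± 3.84 CPM in nuclear RNA (SD, n = 8 each), and vessel cells also express it. Egr4 had 0.68 (SE 0.10) and Nr4a1 −0.51 (SE 0.15).

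**Figure D4:**
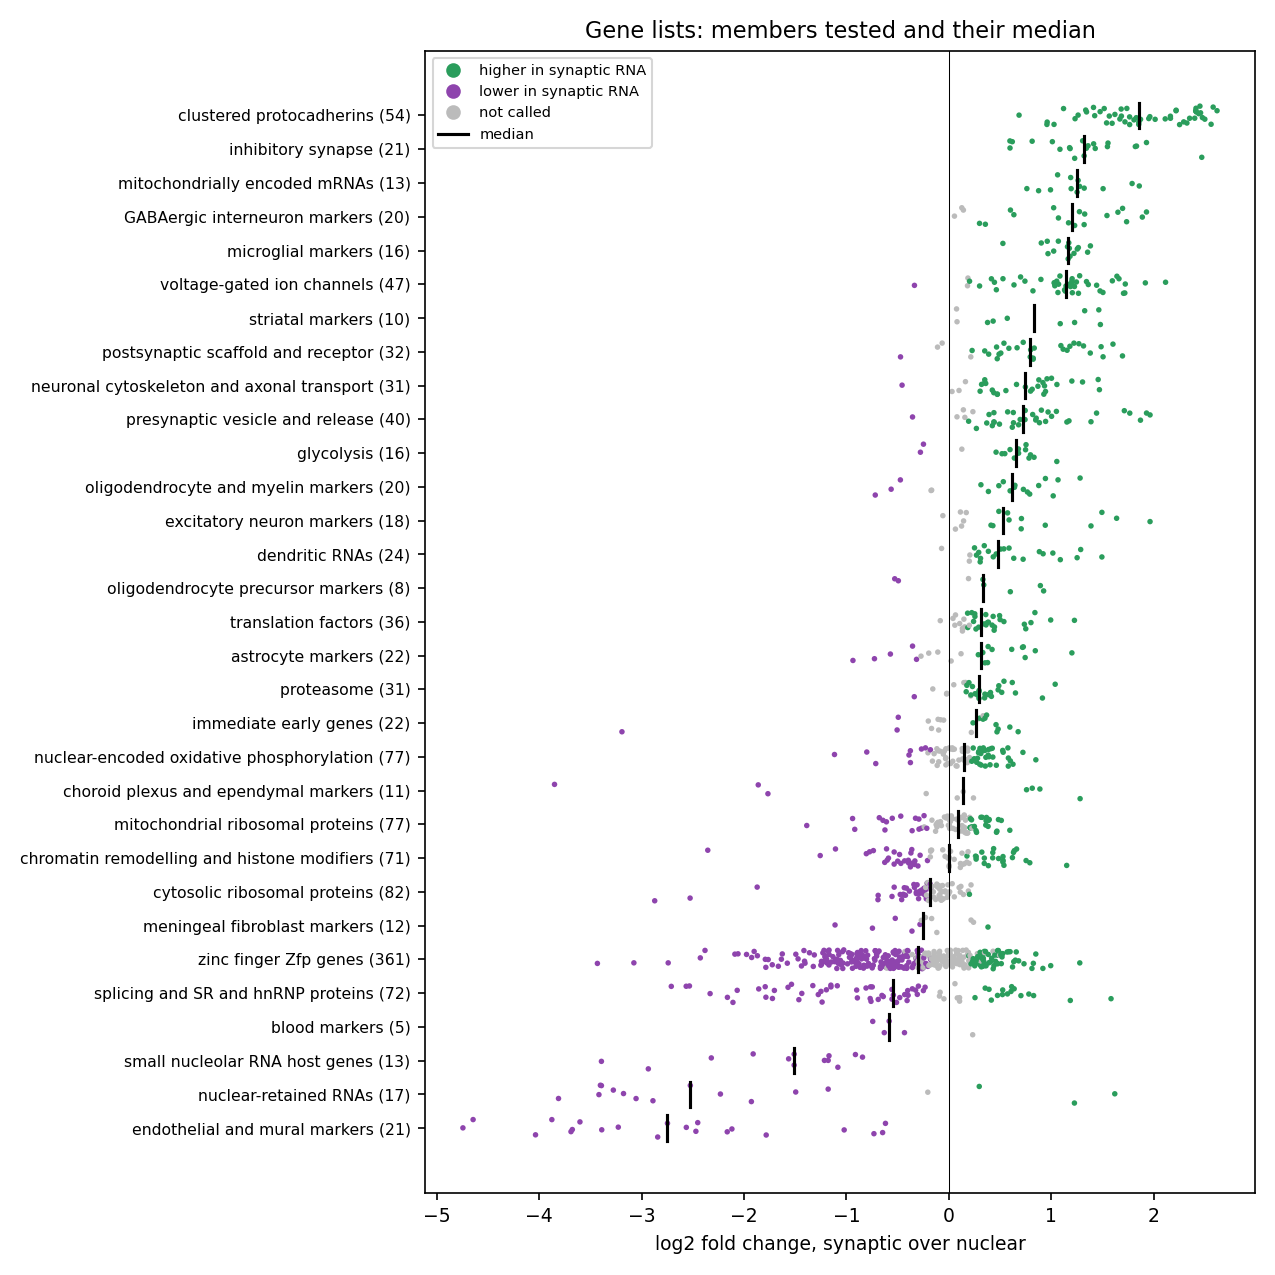
Log2 fold change of synaptic over nuclear RNA (x axis) for the tested members of each gene list (y axis, number tested in brackets), with green points for genes called higher, purple for lower, grey for not called, and a black bar at the median. Endothelial and mural markers have the lowest median (−2.75) and clustered protocadherins the highest (1.85).

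Cells of the cortex other than neurons differed strongly in how their transcripts divided between the fractions. In such bulk libraries fewer cells of a type and less RNA per cell cannot be told apart. Markers of endothelial and mural cells, which form the vessel wall, were lower in synaptic RNA in 21 of 21 members tested, of 22. The median of these markers was −2.75, and 31.9% of protein-coding genes were lower. The summed level of the vessel markers was 227 to 314 CPM in synaptic and 637 to 1570 CPM in nuclear libraries. Among genes with an ordinary symbol whose average log2 CPM reached 3, the 10 lowest values included 6 of that list: Ly6a, Ly6c1, Cldn5, Tek, Slco1a4 and Tie1. Erg, an endothelial transcription factor gene (−4.17, SE 0.20), and the endothelial receptor gene Adgrl4 (−4.02, SE 0.17) were also among the 10, with Ftx and Rtl1.

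Ly6a, a surface antigen of brain endothelium (chromosome 15, 74994877 to 74998031, minus strand), had 0.80 to 2.38 CPM in synaptic and 23.4 to 65.9 CPM in nuclear libraries, 26.8-fold lower in synaptic RNA (log2 fold change −4.74, SE 0.18, adjusted p = 4.93e-12). Cldn5, the main claudin of the blood-brain barrier, had 1.74 to 4.55 CPM in synaptic and 27.9 to 117 CPM in nuclear libraries (−4.03, SE 0.27). Its 2 highest nuclear levels, 117 and 106 CPM, were those of HET female 2 and HOM male 2. The smallest changes of the list included Slc2a1 at −0.65 and Slco1c1 at −0.62, both transporter genes of the barrier.

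Microglial markers had the opposite direction to those of vessels. They were higher in 16 of 16 members with a median of 1.17, beside 40.3% of protein-coding genes. The microglial markers summed to 840 to 1275 CPM in synaptic and 401 to 482 CPM in nuclear libraries. Csf1r, the receptor that microglia need to survive, had 162 to 234 CPM in synaptic and 61.9 to 81.9 CPM in nuclear libraries (1.35, SE 0.10). With total counts 15 of the microglial markers were higher and 0 lower.

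GABAergic interneuron markers were higher in 17 of 20 and lower in 0 (median 1.20), and excitatory neuron markers in 12 of 18 and lower in 0 (median 0.53, or 0.02 with total counts). The background among protein-coding genes was 40.3% higher and 31.9% lower. Sst, the somatostatin gene, averaged 306 ± 73.3 CPM in synaptic and 82.1 ± 16.3 CPM in nuclear RNA (SD, n = 8 each; 1.89, SE 0.14). Among the interneuron markers the transcription factor genes Dlx1 (0.05), Dlx6 (0.13) and Dlx5 (0.14) were not called. Slc17a6, a vesicular glutamate transporter gene, had 1.64 (SE 0.11).

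Glial markers were mixed. The counts here stand beside 40.3% higher and 31.9% lower of all protein-coding genes. Astrocyte markers were higher in 12 and lower in 5 of 22 (median 0.31, or −0.21 with total counts), with Sparcl1, a secreted synaptogenic protein gene, at 1.20 (SE 0.10) and the filament gene Gfap at −0.73 (SE 0.10). Oligodendrocyte markers were higher in 15 and lower in 3 of 20 (median 0.62), yet the myelin genes Mobp (−0.72, SE 0.10) and Mbp (−0.56, SE 0.11) were lower. Enpp2, which is also in the choroid plexus and ependymal list, was higher (1.28, SE 0.08). Markers of oligodendrocyte precursors had 5 higher and 2 lower of 8 (median 0.34, or −0.18 with total counts). Meningeal markers had 1 higher and 5 lower of 12, choroid plexus and ependymal markers 4 and 3 of 11 (median 0.14, or −0.36 with total counts), and blood markers 0 and 4 of 5. The choroid plexus and ependymal counts lie near the shares of protein-coding genes. Striatal markers were higher in 8 of 10 (median 0.83), at 506 to 1121 CPM summed in synaptic and 255 to 712 CPM in nuclear libraries. Both fractions come from the same cortex, so this difference does not measure the dissection. Their list shares Tac1 with the interneuron markers.

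HOM and HET animals were then set against each other for the size of the fraction difference, which asks whether loss of the second Chd8 copy in excitatory neurons goes with another division of RNA. Both effects came from 1 joint fit over all 16 libraries with a shared estimate of the spread. The calls of 1 genotype thus also depend on the animals of the other. In this fit the 3 HOM pairs gave 4615 higher (25.4%) and 4946 lower genes (27.2%). The 5 HET pairs gave 5630 higher (31.0%) and 6181 lower genes (34.0%). Without HET male 1 the HET calls numbered 11596 in place of 11811. There were 9002 genes called in both genotypes. For 1 of these the directions were opposite. The difference between HOM and HET was called for 0 of 18167 genes in edgeR, with 723 genes (3.98%) at an unadjusted p under 0.05, and also for 0 genes in limma voom and 1 in DESeq2. Its median SE over all genes was 0.23, and differences several times their SE also missed the adjusted threshold, so much of what might differ was not detectable with 3 against 5 animals. The difference for Chd8 itself was 0.13 (SE 0.19). From the paired log2 CPM values it was also 0.13, and 0.22 without HET male 1. The list medians were not tested between genotypes. Some of the 31 lists are given here. The medians were −3.09 in HOM and −2.56 in HET for vessel markers, and −1.84 in HOM and −1.28 in HET for small nucleolar RNA hosts. For inhibitory synapses they were 1.18 in HOM and 1.42 in HET, and for chromatin regulators 0.11 in HOM and −0.064 in HET. Member by member, the median HOM minus HET difference was −0.18 for vessel markers and −0.26 for small nucleolar RNA hosts. It was −0.24 for inhibitory synapses and 0.23 for chromatin regulators. The vessel median of single animals ran from −3.84 to −2.14.

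The gene with opposite directions was Bc1, a short neuronal RNA polymerase III transcript that travels into dendrites, and it was also the gene that DESeq2 called (adjusted p = 0.0218); it is named after its values were seen. Bc1 (chromosome 7, 144914470 to 144914637, plus strand) had 1.74, 0.53 and 0.94 CPM in the synaptic libraries of HOM female 1, male 1 and male 2. The nuclear libraries of the same HOM animals held 0.15, 0.26 and 0.69 CPM. In HET females 1 to 3 and males 1 and 2 the synaptic levels were 0.33, 0.82, 0.36, 0.58 and 0.43 CPM, and the nuclear levels were 1.67, 3.02, 2.19, 0.79 and 2.10 CPM. Bc1 was thus higher in synaptic RNA in 3 of 3 HOM and lower in 5 of 5 HET animals, with the nuclear levels of HOM all below those of HET. The log2 fold change was 1.60 in HOM and −1.88 in HET, a difference of 3.48 (SE 0.74, unadjusted p = 0.000245) with an edgeR adjusted p of 0.999. It rests on 10 to 56 counts in synaptic and 8 to 128 counts in nuclear libraries, and the transcript has no templated poly(A) tail.

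The genes of the rule for this comparison were Gpr22, an orphan receptor gene, and Manea, an endomannosidase gene. Gpr22 had a fraction difference of 0.97 in HOM and 1.63 in HET (difference −0.66, SE 0.15), and Manea had 0.84 in HOM and 1.54 in HET (difference −0.70, SE 0.17). Both had an adjusted p of 0.999.

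**Figure D5:**
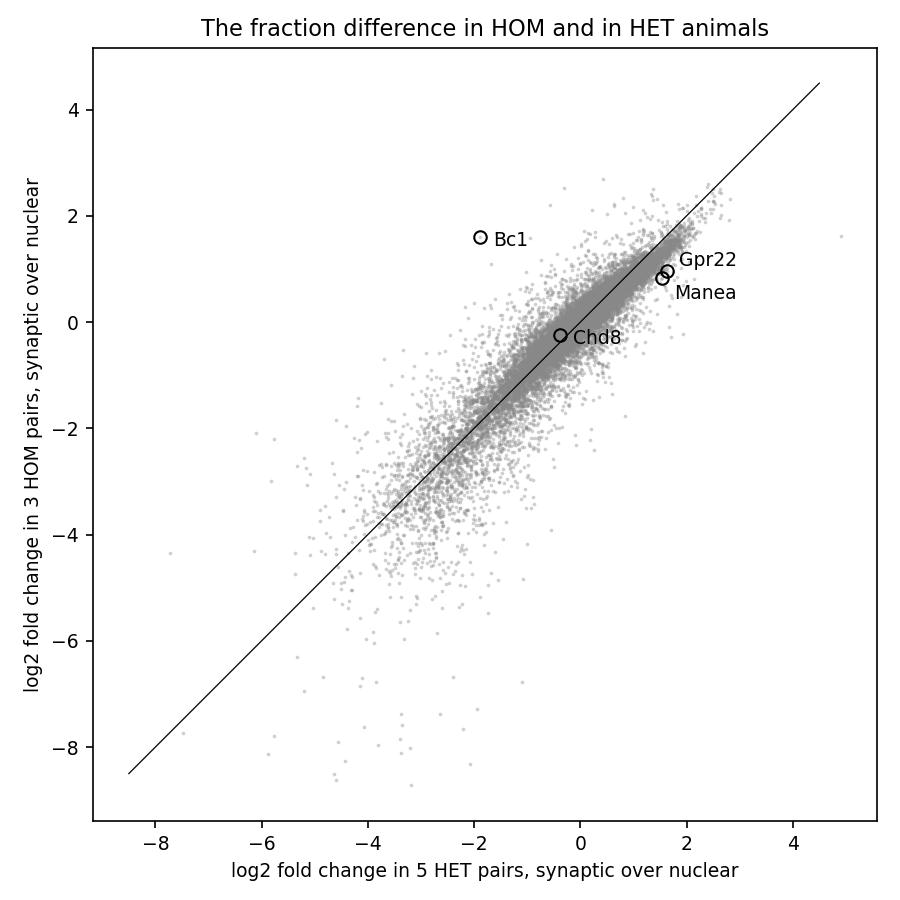
Log2 fold change of synaptic over nuclear RNA in the 3 HOM pairs (y axis) against that in the 5 HET pairs (x axis), 1 point per gene tested, with the line of equality. Bc1 lies apart at 1.60 in HOM and −1.88 in HET, Chd8 lies near the line, and Gpr22 and Manea lie below it.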

How the data were processed

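Per the labels' protocols, cortex was fractionated with Syn-PER and NE-PER reagents, in a text that names the germline Chd8 line, and poly(A) libraries were sequenced on an Element AVITI with paired ends. The authors deposited raw counts per gene. The submitters' processing notes name STAR 2.5.4b, featureCounts 2.0.0 and the build GRCm38 (mm10). Whether counting used strand is not given here, so reads of a gene and of an antisense or overlapping partner may be mixed. Every Cre count was even, so mates may have been counted separately. Of 54838 gene rows, 54809 matched GENCODE M21, the source of symbols and coordinates. Cre stayed out of totals and tests.

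Animal numbers in the library names pair the fractions. Deviations from the fraction means correlated within animals at r = 0.09 (HET male 1) to 0.51 over 13563 genes, and in 6 of 8 animals most with their own partner. The exceptions were HET male 1 (0.09, against 0.21 with another animal) and HOM male 2 (0.20 against 0.28). All libraries carry 1 batch label. Every pair of libraries within a group differed by more than sampling noise (chi-square at least 21.0 times its degrees of freedom). Replicates are separate animals by their numbers.

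Counts were fitted with edgeR 4.0.16 (R 4.3.3, limma 3.58.1) after filterByExpr and TMM, with animal and fraction as terms, and a fraction by genotype term for HOM against HET. Single genes used two-sided exact tests over animals. Alternatives were DESeq2 1.42.0, voom, other scalings and filters, no block, and leaving out each animal. A list symbol with 2 gene IDs was taken at its protein-coding, more abundant row. Named genes were Chd8; the 10 largest changes each way among ordinary symbols whose average log2 CPM reached 3; the 5 genes of highest CPM per fraction; the 2 called members of largest change each way per list; the nuclear-retained and dendritic lists; and the 2 smallest p of HOM against HET where that average reached 1. Members and lists were chosen with earlier results of these data known. Other genes named from the lists, the miRNA hosts, Trank1 and Bc1 were picked after their values were seen. Figures were drawn with matplotlib 3.10.9.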

Additional observations from a re-analysis of the deposited data

Results flagged for a closer look

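Among 188 sets of 5 HET values tested for a sample far from the others, 11 had one, and chance flags about 1 in 20. HET female 2 was the distant animal in 7 of them, which are not independent of each other. Its log2 differences were 2.01 for Adcy1 (the other 4 HET animals 0.80 to 1.12), 1.64 for Dlgap3 (0.57 to 0.87), 1.19 for Shank3 (0.44 to 0.64) and 0.90 for Prkcz (0.26 to 0.35). These genes belong to the dendritic list, whose 24 members were all named by rule. HET female 2 was also apart for Pcdha6 at 5.13 (2.00 to 2.45), for the vessel transporter Slco1a4 at −4.51 (−3.50 to −3.40) and for the median of the astrocyte markers at 0.59 (0.20 to 0.28). HET male 1, the animal without Cre counts, was apart for Tet2 at −1.41 (−2.79 to −2.46) and for the median of the glycolysis genes at 0.32 (0.73 to 0.86). HET female 3 was apart for Erg at −3.44 (−4.59 to −4.32) and HET female 1 for Ndufab1 at −0.90 (−1.10 to −1.07).

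Bc1 moved in opposite directions in the genotypes, higher in synaptic RNA in 3 of 3 HOM and lower in 5 of 5 HET animals, with a HOM minus HET difference of 3.48 (edgeR adjusted p = 0.999).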

How the results depend on the processing

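The counts of genes higher and lower in synaptic RNA were 6224 and 6741. Requiring 2-fold as well gave 1565 and 3676, with 5329 calls in HET pairs and 4489 in HOM pairs. Scaling by total counts gave 2482 and 11482. Leaving out 1 animal at a time gave 5897 to 6230 higher and 6447 to 6727 lower genes, 10721 to 11866 calls in HET pairs, 7133 to 10094 in HOM pairs and 0 for HOM against HET. Without the replicate block that pairs the fractions of an animal, 6102 genes were higher and 6665 lower, and Chd8 had −0.34; the block changed no call on Chd8. For HOM against HET, DESeq2 called 1 gene and the fit without a filter 9 genes, Bc1 among them. The Bc1 difference was 2.59 to 4.19 with 1 animal left out. The Chd8 fraction difference was −0.38 to −0.27 with 1 animal left out and −0.85 with total counts. Chd8 in HOM against HET was −0.46 to 0.055 in synaptic RNA (0.055 without HOM female 1), −0.57 to −0.13 in nuclear RNA and −0.036 to 0.24 for the paired difference (−0.036 without HOM male 1).

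Total counts alone, which lower every value by about the shift of the median, turned these genes below 0: Dlx6os1 (−0.22), Eef1a1 (−0.31), Shank2 (−0.31), Limk1 (−0.26), Dlg4 (−0.24), Psd (−0.22), Map2 (−0.21), Ppp1r9b (−0.21), Actb (−0.17), Eef2 (−0.13), Prkcz (−0.081), Nrgn (−0.054), Arc (−0.0090), Rpl15 (−0.31), Mrpl16 (−0.0020) and Slc13a3 (−0.13). The same scaling turned the medians of dendritic RNAs (−0.032), translation factors (−0.20), nuclear-encoded oxidative phosphorylation (−0.36), mitochondrial ribosomal proteins (−0.42), the proteasome (−0.22), immediate early genes (−0.25), astrocyte (−0.21), oligodendrocyte precursor (−0.18) and choroid plexus markers (−0.36). The median of chromatin regulators, 0.00, was −0.51 with total counts, −0.011 with DESeq2 and with RLE scaling and −0.066 among genes of at least 1 CPM in 8 libraries. With 1 animal left out it was −0.025 (without HOM female 1) to 0.035. Long non-coding RNAs called lower numbered 920 under that filter, which tests fewer genes, against 1658.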

Other observations

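Protein-coding genes at least 2-fold higher in synaptic RNA (1484 genes) had a median gene span of 41.7 kb and a median average log2 CPM of 6.19. Those at least 2-fold lower (1968 genes) had a span of 23.1 kb and an average log2 CPM of 1.94, against 25.3 kb and 4.37 for all 14868 tested. Their median exonic lengths were closer, at 4782 bases for the higher, 4320 bases for the lower and 4476 bases for all protein-coding genes. The long non-coding RNAs at least 2-fold lower (1415 genes) spanned 4.10 kb at the median. Abundance, span and class vary together here, and their parts in the fraction difference were not tested.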
